A study of Mus musculus with 6 samples.

Results

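The genes described here build the autophagosome and select its cargo. They are 45 named genes, chosen by symbol for their roles in the pathway, out of 22063 genes in the table, and all 45 had enough counts to be tested. They were grouped by step into initiation (5 genes), nucleation (6), membrane expansion (8), conjugation enzymes (10), ATG8 proteins (5), cargo receptors (5), fusion with the lysosome (3) and transcription regulators (3). RNA was sequenced from primary cardiac fibroblasts of mice with floxed *Tet3* alleles (*Tet3* f/f). The control cells had been transduced with Ad-GFP, an adenovirus coding for green fluorescent protein, and the knockout cells with Ad-Cre, which codes for the recombinase that excises DNA between loxP sites. TET3 is a dioxygenase that oxidises methylated cytosine in DNA. Both groups, called GFP and CRE after the labels, then received TGF-β, the cytokine that turns fibroblasts into myofibroblasts, so the comparison addresses how RNA levels differ when *Tet3* is deleted in cells exposed to TGF-β. Cre itself is present in CRE and not in GFP, and its effects cannot be told apart from those of the deletion. Each group held 3 libraries. Strain, age and sex of the mice are not in the labels, but the paper states a C57BL/6J background for all its mouse strains. Cells without TGF-β or without virus were not analysed here, and the Cre came from a virus in culture, so any cells that escaped it would be part of the CRE values.

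In macroautophagy a cup-shaped double membrane closes around cytoplasm, becomes an autophagosome and fuses with a lysosome, where the contents are degraded. The ULK1 kinase complex starts the process, a class III phosphatidylinositol kinase complex marks the site, ATG9 and ATG2 bring membrane and lipid, and ubiquitin-like conjugation systems attach the ATG8 proteins (LC3 and GABARAP) to the membrane. Cargo receptors bind ubiquitinated material with one part and ATG8 proteins with another. In fibroblasts autophagy takes part in turnover of procollagen and of damaged organelles, and most of its control is exerted on the proteins, so a transcript level is not a measure of autophagic flux.

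Total counts were between 17002126 and 20343590 per library, and a gene without a count could still be present at between 0.156 and 0.187 CPM, depending on the library, counting error only. CPM is the normalized read count, counts divided by the effective library size. *Tet3* itself (chr6:83362373-83459084 in GRCm38, minus strand) stood at 64.9, 54.4 and 52.0 CPM in GFP and 34.5, 35.9 and 33.6 CPM in CRE. The groups did not overlap, and CRE kept 60.8% of the GFP mean, a log2 fold change of -0.72 (SE 0.08, adjusted p = 5.36e-05). The count covers the whole gene and does not separate the floxed exons. Adjusted p-values here come from edgeR's quasi-likelihood test with Benjamini-Hochberg adjustment over all 12862 tested genes, a gene is called when that value is under 0.05, and ± denotes SD with n = 3. The study calls its replicates biological, but neither it nor the labels say whether the libraries of a group came from separate cultures or animals, so p-values measure the spread between these libraries, which may be technical. The summed level of 10 fibroblast markers was between 39450 and 40840 CPM in GFP and between 21190 and 23280 CPM in CRE, with 9 of 10 called lower, beside 25.7% of all tested genes. Most of that sum was *Col1a1*, *Col1a2* and *Col3a1*, with means of 13730, 11570 and 9804 CPM in GFP and 8248, 7391 and 4123 CPM in CRE. *Thy1* was not called (log2 fold change -0.10, adjusted p = 0.28). The paper uses *Col1a1* and *Postn* as myofibroblast markers and reports that TET3 deletion weakened induction of such markers. Endothelial markers (10 genes) summed to between 414 and 462.5 CPM in GFP and between 212.8 and 237.7 CPM in CRE with 8 lower, 9 macrophage markers to between 58.3 and 66.4 and between 34.3 and 37.6 CPM with 3 of 5 tested lower, and 8 smooth muscle and pericyte markers to between 92.1 and 101.2 and between 70.0 and 80.5 CPM with 5 lower and 1 higher. Cardiomyocyte markers stayed at or below 1.13 CPM in sum, with *Myh6* at 0 in every library. Mitochondrial transcripts took between 3.40% and 3.54% of counts in GFP and between 3.71% and 3.89% in CRE, and between 15070 and 15325 genes had a count in GFP and between 15623 and 15650 in CRE. GFP replicate 1 stood further from the other GFP libraries (chi-square per degree of freedom of 11.7 and 9.07 over genes) than any other pair within a group (3.94 to 5.32), and without it 26 members were called higher and 4 lower, beside 24 and 4 with it. The part of these shifts in the results below was not tested, and in bulk RNA fewer cells of a type and less RNA per cell cannot be told apart.

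Transcripts of the autophagosome genes were more often higher than lower in CRE, by small amounts. Of the 45, 24 were called higher in CRE (53.3%), against 25.5% of all tested genes, and 4 lower (8.89%), against 25.7% of all tested genes. The other 17 did not pass the test. Over all 45 the median log2 fold change was 0.18, beside 0.01 over all tested genes, and 34 (75.6%) lay above 0, beside 50.7% of all genes. In 27 members (60.0%) every CRE library lay above every GFP library, beside 30.0% of all genes, and in 6 (13.3%) every CRE library lay below, beside 29.6%. The changes were small: the median absolute log2 fold change was 0.23, beside 0.25 over all genes, and 2 members, *Atg12* and *Atg101*, rose by more than 1.5-fold with an unadjusted p under 0.05, beside 7.52% of all genes, and none fell below 0.66-fold, beside 10.3%. With library size alone in place of TMM factors the median gene moved up by 0.16 and the members split into 32 higher and 2 lower, beside 43.0% and 16.2% of all genes. In limma on log2(FPKM + 1) they split into 30 higher and 1 lower, beside 38.7% and 14.9%. Of the calls made higher, 20 of 24 held in all 15 refits of the counts or FPKM values, the exceptions being *Becn1*, *Pik3r4*, *Atg4b* and *Atg4c*. Among the 4 lower calls only *Gabarap* held in all 15, and *Atg3*, *Gabarapl1* and *Sqstm1* did not.

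**Figure D1:**
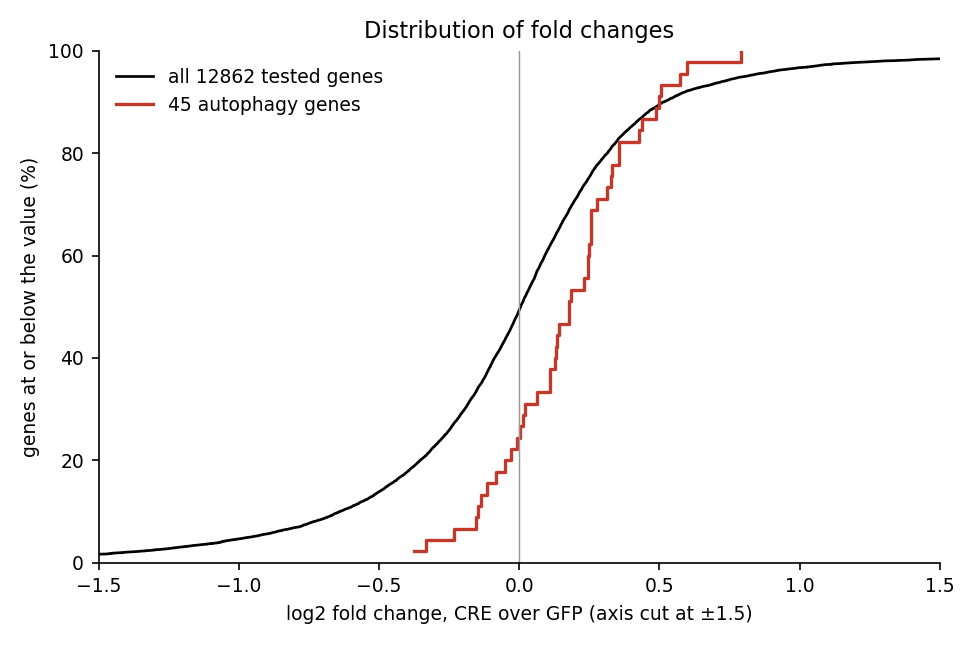
Cumulative share of genes (vertical axis, %) at or below each log2 fold change of CRE over GFP (horizontal axis, cut at ±1.5) for all 12862 tested genes and the 45 autophagy genes. The autophagy curve lies to the right of the curve of all genes through most of the range, with a median of 0.18 against 0.01, and ends near 0.79, short of the long upper tail of all genes.

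The 4 promoters of members that hold the sequence CACGTG, the core of the CLEAR element bound by TFEB and TFE3, are printed here because the transcription regulators are among the members. The letters are from RefSeq (GRCm38.p6), from 250 bases before to 40 after the RefSeq start, 5′ to 3′ on the strand of the gene, with CACGTG in capitals. In GENCODE M21 the gene model of *Atg7* begins 27999 bases before the RefSeq start used here and that of *Atg14* 2215 bases before it, so these windows lie inside the genes as annotated there. *Atg14*, at chr14:47568395-47568684 on the minus strand, and *Atg5*, at chr10:44268089-44268378 on the plus strand, were called higher. *Atg3*, at chr16:45158579-45158868 on the plus strand, was called lower, and *Atg7*, at chr6:114670846-114671135 on the plus strand, did not pass.
Atg14: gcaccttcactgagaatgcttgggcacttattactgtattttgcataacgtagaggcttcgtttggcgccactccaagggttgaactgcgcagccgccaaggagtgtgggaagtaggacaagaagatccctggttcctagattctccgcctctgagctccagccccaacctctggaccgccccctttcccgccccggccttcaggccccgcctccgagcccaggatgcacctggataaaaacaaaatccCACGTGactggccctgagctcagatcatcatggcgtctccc
Atg5: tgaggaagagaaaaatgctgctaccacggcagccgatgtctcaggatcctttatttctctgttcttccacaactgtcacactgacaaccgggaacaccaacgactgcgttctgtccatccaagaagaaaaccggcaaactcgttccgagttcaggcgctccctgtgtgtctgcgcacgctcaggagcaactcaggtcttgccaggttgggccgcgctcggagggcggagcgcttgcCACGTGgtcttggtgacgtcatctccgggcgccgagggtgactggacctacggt
Atg3: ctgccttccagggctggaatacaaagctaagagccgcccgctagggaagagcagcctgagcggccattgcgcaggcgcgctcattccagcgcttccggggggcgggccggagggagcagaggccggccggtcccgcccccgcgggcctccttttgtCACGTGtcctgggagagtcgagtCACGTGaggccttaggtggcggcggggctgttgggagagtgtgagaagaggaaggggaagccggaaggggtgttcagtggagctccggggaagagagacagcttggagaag
Atg7: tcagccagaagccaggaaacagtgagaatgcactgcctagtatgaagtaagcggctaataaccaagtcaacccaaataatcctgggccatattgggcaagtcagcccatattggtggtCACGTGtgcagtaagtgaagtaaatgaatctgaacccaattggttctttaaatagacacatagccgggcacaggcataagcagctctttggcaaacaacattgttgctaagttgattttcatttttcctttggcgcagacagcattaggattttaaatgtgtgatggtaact
The motif begins 1 base before the RefSeq start in *Atg14*, 14 bases before it in *Atg5* and 132 bases before it in *Atg7*. *Atg3* holds it in 2 places, the first 94 bases before the start. Of 45 members 37 had an entry, with 48 windows of 300 bases, and the table has none for *Pik3c3*, *Atg16l1*, *Epg5*, *Map1lc3a*, *Atg12*, *Becn1*, *Rb1cc1* and *Wdr45b*. CACGTG stood in 4 of the 48 windows (8.33%), beside 7.15% of all 32851 windows. The longer form TCACGTGA, which contains CACGTG, stood in 1 (*Atg3*), beside 0.974% of all. TGACNNNGC, a form of the antioxidant response element, stood in 8 windows of 6 genes (16.7%), beside 12.4%, and neither GTAAACA, the forkhead core, nor TGATGNAA, the ATF4 element, stood in any member window, beside 3.65% and 3.97% of all, with both strands searched in each case. Since TET3 acts on methylated CpG, CpG dinucleotides were counted too: the median window held 19 in the members and 7 in all 32851 windows, with 19.5 in windows of members called higher, 16 in members called lower and 16.5 in those not called. The 32851 windows, also used for the motif shares, were not limited to genes tested here, whereas every member was tested. The part of expression in the CpG contrast was therefore not tested. The windows of the printed promoters held 24 CpG in *Atg5*, 23 in *Atg3*, 13 in *Atg14* and 4 in *Atg7*. Such matches describe the letters and carry no measure of binding or methylation.

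Of the 5 initiation genes 4 rose, beside 25.5% of all tested genes called higher. All 5 lay higher in every CRE library than in any GFP library, beside 30.0% of all tested genes, with a median log2 fold change of 0.35 over the step. *Atg101*, which stabilises ATG13 in the complex, was measured at 8.95, 12.1 and 12.1 CPM in GFP and 17.5, 16.4 and 16.4 CPM in CRE, the lowest GFP library standing well below the other two. Its log2 fold change was 0.60 (SE 0.12, adjusted p = 0.00165). Without GFP replicate 1, the lowest library, it was 0.47 (adjusted p = 0.00148), which is under 1.5-fold. *Atg13*, the adaptor that joins ULK1 to its scaffold, gave 59.7, 59.2 and 58.1 CPM in GFP and 82.6, 78.6 and 76.8 CPM in CRE, with GFP libraries close to each other. The rise was 0.43 on the log2 scale (SE 0.05, adjusted p = 4.54e-05). *Rb1cc1*, which codes for that scaffold (FIP200), stood at 115, 126 and 119.8 CPM in GFP and 157, 151 and 153 CPM in CRE, and rose by 0.35 (SE 0.05, adjusted p = 0.000164). For the kinase gene *Ulk1* itself the values were 54.8, 54.9 and 56.5 CPM in GFP and 64.9, 68.2 and 64.5 CPM in CRE, a log2 fold change of 0.25 (SE 0.05, adjusted p = 0.00148). Its paralogue *Ulk2* had a log2 fold change of 0.13 (95% interval 0.01 to 0.26, adjusted p = 0.0747) and did not pass, although its libraries were separated and it passed in 3 of 17 alternatives (library size alone, upper-quartile scaling and limma on FPKM values). Without GFP replicate 3 it was 0.08 (adjusted p = 0.283).

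**Figure D2:**
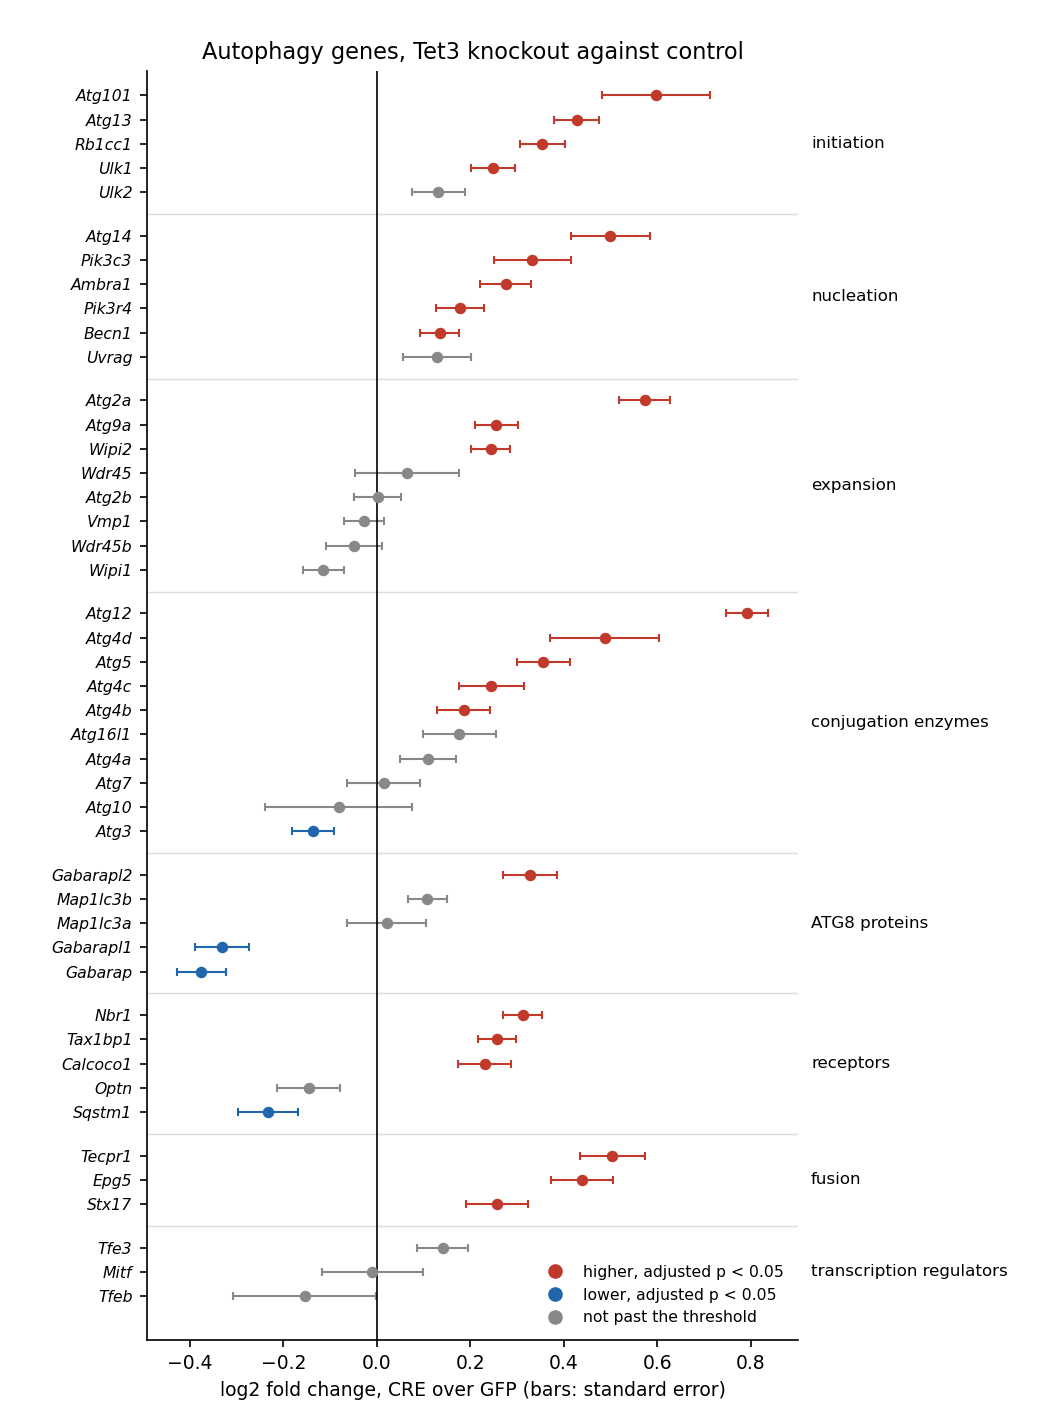
Log2 fold change of CRE over GFP for each of the 45 genes (horizontal axis, bars show the standard error), ordered within step, with genes called higher in red, called lower in blue and not called in grey. Initiation, nucleation and fusion lie wholly to the right of 0, whereas the ATG8 proteins and the receptors spread to both sides, from -0.38 for Gabarap to 0.33 for Gabarapl2.

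In the nucleation complex 5 of 6 genes were called higher and none lower, beside 25.5% and 25.7% of all tested genes, with a median log2 fold change of 0.23. *Atg14*, the subunit that directs the lipid kinase to the autophagosome, changed most, at 14.3, 14.5 and 13.9 CPM in GFP and 18.7, 19.8 and 21.9 CPM in CRE. Its mean went from 14.2 ± 0.340 CPM in GFP to 20.1 ± 1.64 CPM in CRE, or 141.3% of the control, and a log2 fold change of 0.50 (SE 0.08, adjusted p = 0.000682). *Pik3c3*, the catalytic subunit VPS34, gave 28.3, 31.2 and 32.7 CPM in GFP and 42.4, 34.9 and 38.9 CPM in CRE, with 1 CRE library close to the highest GFP library. Its log2 fold change was 0.33 (SE 0.08, adjusted p = 0.00689). *Ambra1*, which binds Beclin 1 and promotes its activity, stood at 45.7, 43.8 and 44.9 CPM in GFP and 51.5, 54.7 and 56.6 CPM in CRE (log2 fold change 0.28, SE 0.05, adjusted p = 0.00173). The remaining calls were smaller. *Pik3r4*, the regulatory subunit VPS15, was measured at 49.2, 51.6 and 47.8 CPM in GFP and 56.1, 54.4 and 57.4 CPM in CRE (log2 fold change 0.18, SE 0.05, adjusted p = 0.0150), and *Becn1*, coding for Beclin 1, at a log2 fold change of 0.13 (SE 0.04, adjusted p = 0.0203). Both calls were lost in DESeq2 (adjusted p of 0.0526 and 0.0669), without GFP replicate 3 (0.0638 and 0.0600) and without CRE replicate 3 (0.0536 and 0.0680). *Becn1* shares 43.9% of its exonic bases with *Cntd1* on the other strand, which had at most 6 counts. *Uvrag*, the subunit that replaces ATG14 in the endosomal form of the complex, had a log2 fold change of 0.13 (95% interval -0.03 to 0.29, adjusted p = 0.164), and passed in 3 of 17 alternatives, with library size alone, on FPKM values and without GFP replicate 2 (0.21, adjusted p = 0.0242), while without GFP replicate 3 it was 0.07 (adjusted p = 0.473).

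The expansion step was divided, with 3 of 8 genes called higher, none lower and a median of 0.03, beside 25.5% higher and 25.7% lower of all tested genes. The clearest case was *Atg2a*, one of a pair of lipid transfer proteins that bridge the growing membrane to the endoplasmic reticulum. It was measured at 43.9, 43.2 and 42.2 CPM in GFP and 67.6, 60.8 and 64.0 CPM in CRE, a log2 fold change of 0.57 (SE 0.05, adjusted p = 1.65e-05). Its paralogue *Atg2b* had a log2 fold change of 0.00 (95% interval -0.11 to 0.11, adjusted p = 0.980), which leaves no room for a change as large as that of *Atg2a*. With library size alone *Atg2b* was at 0.16 and passed as higher (adjusted p = 0.0151), the only 1 of 17 alternatives in which it passed. Within a library the ratio of *Atg2a* to *Atg2b* counts, which no scaling of libraries can move, was 0.534, 0.514 and 0.549 in GFP and 0.812, 0.772 and 0.787 in CRE, and its exact two-sided permutation p was 0.1, the smallest that 3 against 3 can give. *Atg9a*, the scramblase carried on vesicles that seed the membrane, stood at 62.6, 63.5 and 62.0 CPM in GFP and 72.2, 75.7 and 76.6 CPM in CRE (log2 fold change 0.26, SE 0.05, adjusted p = 0.00103), and 31.8% of its exonic bases also belong to the transcript *Gm29253* of the same strand. *Wipi2*, a phosphoinositide reader that recruits ATG16L1, gave 99.4, 95.7 and 96.1 CPM in GFP and 115, 116 and 113 CPM in CRE (log2 fold change 0.24, SE 0.04, adjusted p = 0.000796). The other readers did not pass: *Wipi1* was at -0.11 (95% interval -0.21 to -0.02, adjusted p = 0.0509) with every CRE library below every GFP library, *Wdr45* (24.7% of exonic bases shared with *Gm45208*) at 0.07 and *Wdr45b* at -0.05. *Wipi1* passed as lower with RLE factors, in limma-voom and without GFP replicate 1 (-0.13, adjusted p = 0.0385) and turned positive with library size alone. *Vmp1*, a scramblase of the endoplasmic reticulum, was at -0.03 (95% interval -0.12 to 0.07, adjusted p = 0.615). It turned positive and passed as higher with library size alone (0.13, adjusted p = 0.0189) and in limma on log2(FPKM + 1) (0.13, adjusted p = 0.022).

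Conjugation was led by *Atg12* (chr18:46730144-46741580, minus strand), the ubiquitin-like protein that is joined to ATG5. Of the 10 enzymes and substrates of this step 5 were called higher and 1 lower, beside 25.5% and 25.7% of all tested genes. *Atg12* was measured at 58.3, 55.4 and 59.1 CPM in GFP and 98.9, 100.4 and 100.1 CPM in CRE, so each CRE library exceeded the highest GFP library by a wide margin. Its mean went from 57.6 ± 1.93 CPM in GFP to 99.8 ± 0.792 CPM in CRE, or 173.3% of the control, with a log2 fold change of 0.79 (SE 0.05, adjusted p = 7.05e-07), the largest among the members. Its partner *Atg5* (chr10:44268358-44364291, plus strand) also rose, at 31.1, 30.1 and 29.9 CPM in GFP and 39.5, 39.8 and 37.3 CPM in CRE (log2 fold change 0.36, SE 0.06, adjusted p = 0.000462). The ratio of *Atg12* to *Atg5* counts was 1.87, 1.84 and 1.98 in GFP and 2.50, 2.53 and 2.68 in CRE. Processing of ATG8 proteins is done by the ATG4 proteases. *Atg4d* stood at 8.71, 8.62 and 7.85 CPM in GFP and 12.3, 12.8 and 10.1 CPM in CRE (log2 fold change 0.49, SE 0.12, adjusted p = 0.00552), at a low level and with 19.3% of its exonic bases shared with *Kri1* on the other strand. *Atg4c* gave 17.7, 16.6 and 17.6 CPM in GFP and 20.2, 20.8 and 20.4 CPM in CRE (log2 fold change 0.25, SE 0.07, adjusted p = 0.0141), a call lost in DESeq2 (adjusted p = 0.0643). The call of *Atg4b*, the main LC3 protease, at a log2 fold change of 0.19 (adjusted p = 0.0189), was lost without GFP replicate 2 (0.0661), without CRE replicate 1 (0.0659), in DESeq2 (0.0705) and in limma on log2(FPKM + 1) (0.176). *Atg4a* did not pass (0.11, 95% interval -0.02 to 0.24). It passed as higher in 2 of 17 alternatives, with library size alone (0.27, adjusted p = 0.00285) and in limma on log2(FPKM + 1) (0.27, adjusted p = 0.00522).

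None of the enzymes that activate and carry the ubiquitin-like proteins was called higher. *Atg7*, the shared activating enzyme, had a log2 fold change of 0.01 (95% interval -0.16 to 0.19, adjusted p = 0.895). *Atg10*, which carries ATG12, was at -0.08 with a wide interval (-0.43 to 0.27), and *Atg16l1*, which completes the complex with ATG12 and ATG5, was at 0.18 (adjusted p = 0.0828) and passed in 3 of 17 alternatives, with library size alone, on FPKM values and without GFP replicate 1 (0.26, adjusted p = 0.00969). *Atg3*, which carries the ATG8 proteins, was called lower by a small margin. Its libraries were 69.2, 69.8 and 66.9 CPM in GFP and 62.8, 63.0 and 61.5 CPM in CRE, with no overlap, and the log2 fold change was -0.14 (SE 0.05, adjusted p = 0.0266). That call was lost in DESeq2 (adjusted p = 0.0934) and without any 1 of the libraries but GFP replicate 3, with adjusted p between 0.0510 and 0.0868, and the direction turned with library size alone (0.02). The ratio of *Atg12* to *Atg3* counts was 0.843, 0.793 and 0.883 in GFP and 1.58, 1.59 and 1.63 in CRE, the widest log2 change among the 8 ratios computed (0.93).

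**Figure D3:**
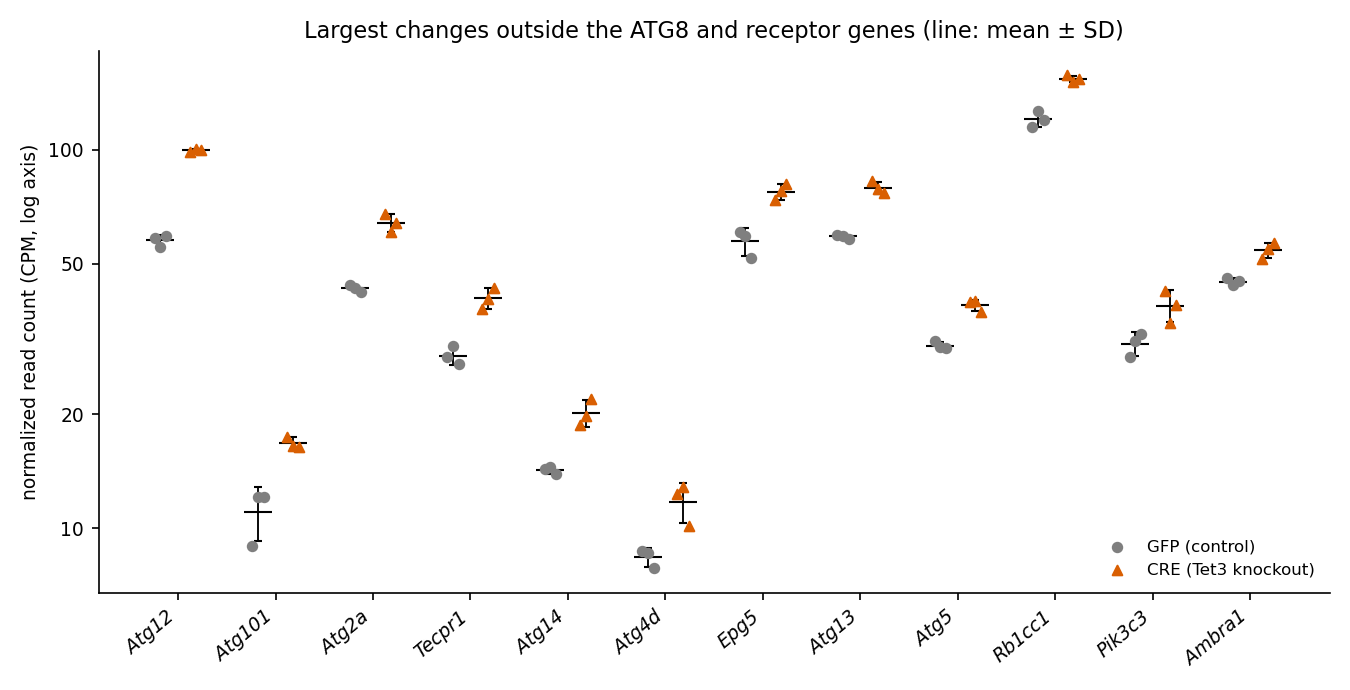
Normalized read count (CPM, log axis) in each library for the 12 called genes with the largest changes outside the ATG8 and receptor groups, GFP in grey and CRE in orange, with lines at the mean ± SD. No CRE library of these genes falls to the level of a GFP library, and the gap is widest for Atg12, at 57.6 ± 1.93 against 99.8 ± 0.792 CPM.

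In the ATG8 family 1 gene rose, 2 fell and 2 did not pass, beside 25.5% of all tested genes called higher and 25.7% lower. These small ubiquitin-like proteins coat the autophagosome membrane and are what the receptors bind. *Gabarap* (chr11:69991143-69994951, plus strand) fell, at 342, 324 and 333 CPM in GFP and 267, 238 and 265 CPM in CRE, with no overlap. Its mean went from 333 ± 9.33 CPM in GFP to 257 ± 16.4 CPM in CRE, a log2 fold change of -0.38 (SE 0.05, adjusted p = 0.000224), and it stayed lower in every refit, between -0.40 and -0.20. *Gabarapl1* (chr6:129533160-129542346, plus strand) was at 134, 124 and 138 CPM in GFP and 109, 97.9 and 109 CPM in CRE, again lower in each CRE library. The log2 fold change was -0.33 (SE 0.06, adjusted p = 0.000913), shrank to -0.10 on FPKM values and did not pass there (adjusted p = 0.297 in limma), and 28.3% of its exonic bases overlap *1700101I11Rik* on the other strand. *Gabarapl2* (chr8:111940703-111953612, plus strand), also known as GATE-16, moved the other way, at 53.9, 50.3 and 56.2 CPM in GFP and 69.7, 64.0 and 67.6 CPM in CRE. It rose by 0.33 on the log2 scale (SE 0.06, adjusted p = 0.000866). Neither LC3 gene passed, *Map1lc3b* by a small margin. *Map1lc3b*, the form most used as an autophagosome marker, gave 210.5, 203 and 201 CPM in GFP and 225, 217 and 220.5 CPM in CRE, a log2 fold change of 0.11 (95% interval 0.01 to 0.20, adjusted p = 0.0529). It passed as higher in 7 of 17 alternatives: without GFP replicate 1 (0.13, adjusted p = 0.0372), with library size alone (0.27), upper-quartile scaling, a minimum of 10 counts in every library or the replicate block, and in limma on voom or FPKM values. *Map1lc3a* stood at 21.1, 19.5 and 22.0 CPM in GFP and 22.6, 19.2 and 21.7 CPM in CRE, with overlapping groups and a log2 fold change of 0.02 (95% interval -0.17 to 0.21, adjusted p = 0.858).

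Per transcript length, in the FPKM values of the authors, *Gabarap* was the most abundant of the family in both groups. Its share of the summed FPKM of the 5 genes was 51.2% ± 1.05 in GFP and 44.1% ± 0.271 in CRE. *Map1lc3b* came next and went from 21.9% ± 0.415 to 27.2% ± 0.610, and *Gabarapl2* from 6.52% ± 0.223 to 9.09% ± 0.231. In these 3 genes the CRE and GFP libraries did not overlap. *Gabarapl1* held 16.5% ± 0.673 and 15.3% ± 0.635 of the sum, with overlapping libraries, and *Map1lc3a*, lowest in both groups, 3.84% ± 0.143 and 4.32% ± 0.124, without overlap. The GABARAP subfamily together held 74.3% ± 0.396 in GFP and 68.5% ± 0.540 in CRE. Summed FPKM was 469.1, 447.3 and 468.5 in GFP and 480.0, 435.2 and 481.9 in CRE, with overlapping groups. FPKM values were used without TMM factors, which lay between 0.944 and 0.947 in GFP and between 1.05 and 1.06 in CRE. With library size alone the median gene moved up by 0.16, so sums in FPKM do not compare between groups as CPM do. Shares within a library are free of this. Ratios of raw counts within a library, free of any scaling between libraries, differed in the same direction. *Gabarapl2* over *Gabarap* was 0.158, 0.155 and 0.169 in GFP and 0.261, 0.269 and 0.255 in CRE, *Gabarapl2* over *Gabarapl1* was 0.401, 0.404 and 0.406 in GFP and 0.640, 0.654 and 0.621 in CRE, and *Map1lc3b* over *Gabarap* was 0.615, 0.627 and 0.605 in GFP and 0.843, 0.912 and 0.832 in CRE. Each CRE ratio exceeded each GFP ratio, the exact two-sided permutation p was 0.1 for every ratio, and the 8 pairs were picked after their values had been seen. How reads that fit retrocopies of these short genes were counted is not given in the sources used here.

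**Figure D4:**
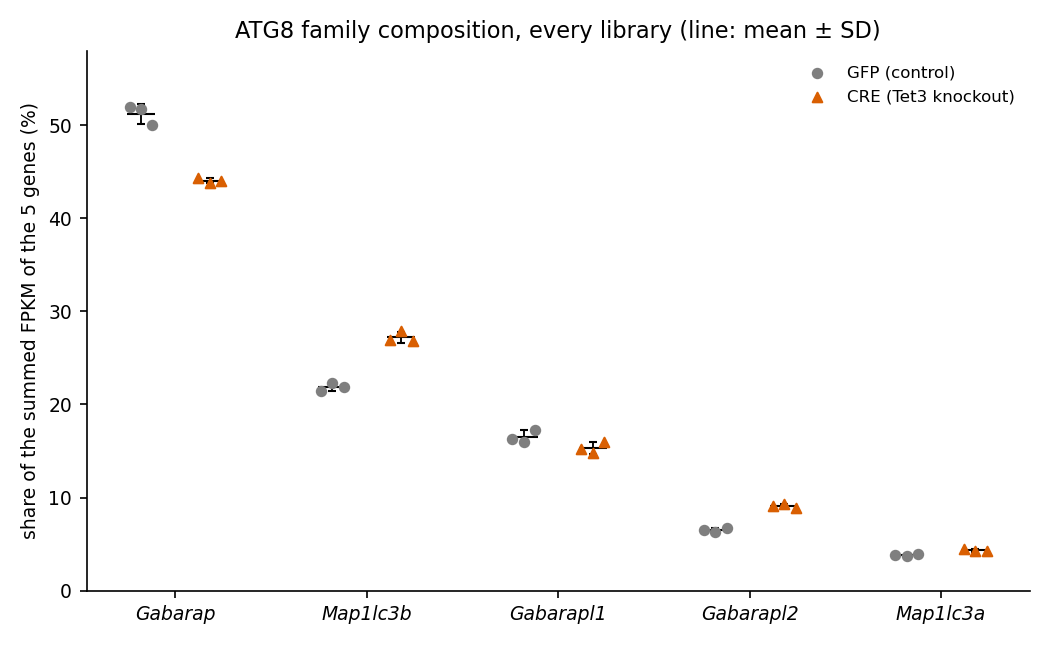
Share of each gene in the summed FPKM of the 5 ATG8 genes (%), in each library, GFP in grey and CRE in orange, with lines at the mean ± SD. Gabarap holds 51.2% in GFP and 44.1% in CRE, Map1lc3b and Gabarapl2 hold more in each CRE library, and Gabarapl1 overlaps between groups.

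Of the 5 cargo receptors 3 rose, 1 fell and 1 did not pass, beside 25.5% of all tested genes called higher and 25.7% lower. *Sqstm1* (chr11:50199366-50210827, minus strand), coding for p62, was the most abundant receptor, with a mean of 276 FPKM in GFP and 262 FPKM in CRE, without TMM factors. On counts it stood at 655, 545 and 609 CPM in GFP and 524, 489.5 and 526 CPM in CRE, the GFP libraries being widely spread but each above the CRE libraries. The log2 fold change was -0.23 (SE 0.06, adjusted p = 0.0123). This call was lost without CRE replicate 2 (-0.20, adjusted p = 0.0562), with library size alone (-0.07, adjusted p = 0.365) and on FPKM values, and 17.3% of its exonic bases overlap *Mrnip* on the other strand, which had at most 20 counts. *Nbr1*, a receptor that forms condensates together with p62, rose instead, at 206, 206 and 208 CPM in GFP and 260.3, 249.6 and 261 CPM in CRE. Its log2 fold change was 0.31 (SE 0.04, adjusted p = 0.000140). *Tax1bp1*, which brings the initiation complex to ubiquitin condensates, gave 240.1, 241 and 241 CPM in GFP and 296, 286 and 282 CPM in CRE (log2 fold change 0.26, SE 0.04, adjusted p = 0.000456), the GFP libraries lying close together. *Calcoco1*, a receptor for endoplasmic reticulum and Golgi membrane, gave 52.4, 56.5 and 51.4 CPM in GFP and 62.5, 59.8 and 65.8 CPM in CRE (log2 fold change 0.23, SE 0.06, adjusted p = 0.00673). *Optn*, which acts in mitophagy and in clearance of bacteria, was the least abundant, at 25.9, 25.0 and 24.4 CPM in GFP and 21.7, 22.4 and 24.0 CPM in CRE. Its CRE libraries all lay below the GFP libraries, but the log2 fold change of -0.15 (95% interval -0.30 to 0.01, adjusted p = 0.0979) did not pass.

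Counts relative to *Sqstm1* were compared within each library. The ratio of *Nbr1* to *Sqstm1* counts was 0.315, 0.379 and 0.342 in GFP and 0.497, 0.510 and 0.497 in CRE, and that of *Tax1bp1* to *Sqstm1* was 0.367, 0.442 and 0.396 in GFP and 0.564, 0.584 and 0.537 in CRE. Both were higher in each CRE library than in any GFP library, by 0.54 and 0.49 on the log2 scale, each with an exact two-sided permutation p of 0.1, the smallest possible. Per length the order of mean FPKM was the same in both groups, with *Sqstm1* first, then *Tax1bp1* (69.9 and 93.8 FPKM), *Nbr1* (45.4 and 63.5 FPKM), *Calcoco1* (18.0 and 23.8 FPKM) and *Optn* (9.18 and 9.25 FPKM). These values carry no TMM factors, so they give the order within a group and not the size of the change between groups.

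**Figure D5:**
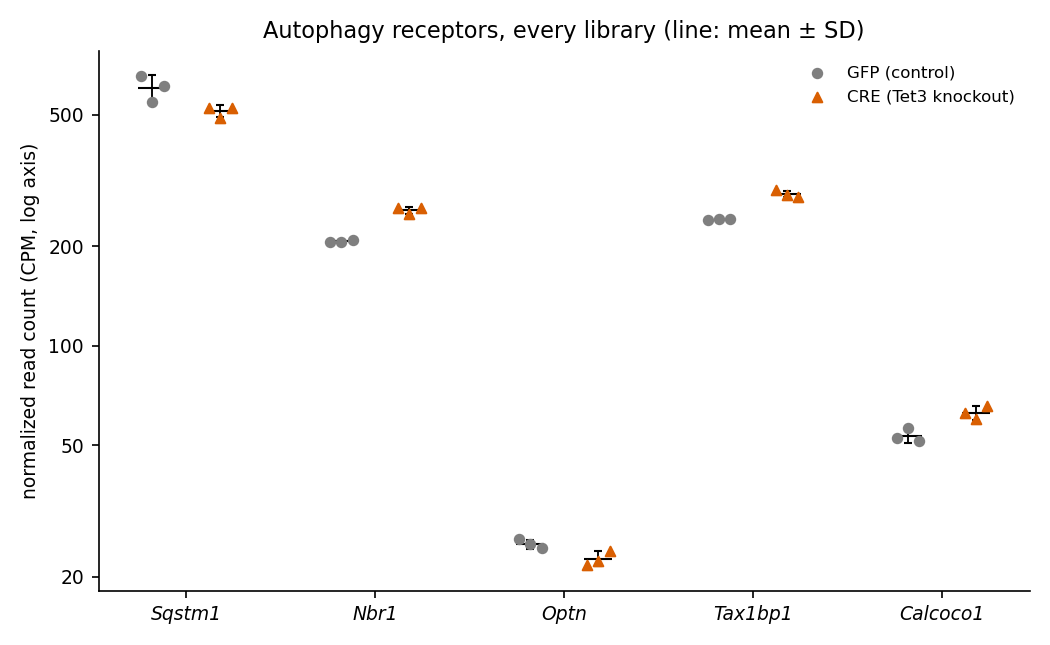
Normalized read count (CPM, log axis) of the 5 cargo receptors in each library, GFP in grey and CRE in orange, with lines at the mean ± SD. Nbr1, Tax1bp1 and Calcoco1 lie higher in each CRE library, whereas Sqstm1, at 602.8 ± 55.2 against 512.9 ± 20.3 CPM, and Optn lie lower.

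The fusion genes rose without exception, 3 of 3, beside 25.5% of all tested genes called higher, with a median log2 fold change of 0.44. *Tecpr1*, a tethering protein that binds the ATG12-ATG5 conjugate, was measured at 28.3, 30.3 and 27.2 CPM in GFP and 38.0, 40.4 and 43.2 CPM in CRE (log2 fold change 0.50, SE 0.07, adjusted p = 0.000172). *Epg5*, a tether that reads RAB7 and ATG8 proteins, gave 60.8, 59.2 and 51.8 CPM in GFP and 73.5, 77.9 and 81.2 CPM in CRE (log2 fold change 0.44, SE 0.07, adjusted p = 0.000360). *Stx17*, the SNARE of the autophagosome, stood at 32.3, 29.4 and 30.0 CPM in GFP and 34.8, 36.0 and 38.8 CPM in CRE (log2 fold change 0.26, SE 0.07, adjusted p = 0.00794). In each of them every CRE library lay above every GFP library, beside 30.0% of all tested genes.

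None of the MiT/TFE factors, which drive transcription of lysosomal and autophagy genes, passed the test. *Tfe3*, the most abundant of them, had a log2 fold change of 0.14 (95% interval 0.02 to 0.26, adjusted p = 0.0510) with overlapping libraries. It passed as higher in 7 of 17 alternatives: with library size alone, upper-quartile scaling, a minimum of 10 counts in every library or the replicate block, on FPKM values, without GFP replicate 2 (0.17, adjusted p = 0.0451) and without CRE replicate 1 (0.19, adjusted p = 0.0191). *Tfeb* had between 84 and 98 counts per library and a log2 fold change of -0.15 (95% interval -0.49 to 0.19, adjusted p = 0.428), and with 1 library left out the value ran from -0.29 to -0.05. *Mitf* was at -0.01 (95% interval -0.25 to 0.23, adjusted p = 0.952). The median change of the members, 0.18, lies within the intervals of *Tfeb* and *Mitf*, so these data do not separate a change of that size from none. The intervals bear on transcript levels only, as these factors are governed largely by where in the cell they reside.

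The median length of the longest annotated form was 3895 bases in the members and 3482 bases in all genes with an annotation. Among the 16 members with transcripts of up to 3015 bases, 4 were higher and 4 lower, beside 20.7% and 25.8% of all genes of that length. Among the 29 longer members, 20 were higher and none lower, beside 28.7% and 25.7% of all genes of that length. All 4 lower members, *Gabarap*, *Gabarapl1*, *Sqstm1* and *Atg3*, were thus among the short ones, and the part of length in the split was not tested.

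Genes around the core machinery moved in both directions. Of 77 further genes of the pathway, listed by role, 74 were tested. In all 29 were called higher (39.2%, beside 25.5% of all tested genes) and 15 lower (20.3%, beside 25.7%), with a median log2 fold change of 0.07. With library size alone 40 were higher and 6 lower, beside 43.0% and 16.2% of all genes, and on log2(FPKM + 1) 36 were higher and 5 lower, beside 38.7% and 14.9%. The list of late genes holds the HOPS complex, the SNAREs, *Rab7*, the tethering proteins *Plekhm1* and *Tecpr2*, and *Rubcn*, coding for Rubicon, an inhibitor of the pathway. Of its 13 tested genes 9 were higher and none lower, with a median of 0.29, and the 9 include *Plekhm1* (0.29), *Tecpr2* and *Rubcn* (0.41, adjusted p = 0.000337). *Tecpr2* changed most in it, at 17.0, 16.5 and 15.5 CPM in GFP and 24.8, 29.0 and 29.1 CPM in CRE (log2 fold change 0.76, SE 0.08, adjusted p = 4.24e-05), and *Vps33a*, of the HOPS core, was the least changed of those called (0.15, adjusted p = 0.0278). The call of *Vps33a* was lost in DESeq2 and without GFP replicate 3 or any of the CRE libraries, with adjusted p between 0.0535 and 0.114.

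Upstream, the kinase mTORC1 holds ULK1 inactive when nutrients are present. Its subunits and its activators and inhibitors together gave 7 higher (29.2%) and 8 lower (33.3%) of 24, with a median of 0.05, shares near those of all tested genes (25.5% and 25.7%). Those higher were *Mtor* (0.36) and *Rptor* (0.36), of the kinase complex itself, the inhibitors *Sesn2* (0.50) and *Sesn3* (0.94), *Mlst8* (0.25), *Rraga* (0.20) and *Rragd*. Those lower were the inhibitors *Akt1s1* (-0.31) and *Ddit4* (-0.28), *Fnip2* (-0.70), *Lamtor1* (-0.50), *Lamtor3* (-0.39), *Flcn* (-0.29), *Rragc* (-0.25) and *Rragb*. All but *Rragd* and *Rragb* were named after their values were seen. *Rragd*, a RAG GTPase that is itself a target of TFEB, stood at 4.97, 2.48 and 3.58 CPM in GFP and 8.44, 6.59 and 8.03 CPM in CRE (log2 fold change 1.07, SE 0.21, adjusted p = 0.00197). *Rragb*, another RAG GTPase, was lowest (-1.31, adjusted p = 0.0199), but had 13 to 15 counts in GFP and 3 to 8 in CRE, and its call was lost without GFP replicate 2, GFP replicate 3 or CRE replicate 1, in DESeq2 and in limma on log2(FPKM + 1), where the change was -0.22 (adjusted p between 0.0511 and 0.115). Of 7 genes of the AMPK list, the subunits of this kinase, which activates ULK1 when energy is low, and *Stk11*, the kinase upstream of it, 3 were higher and none lower, all 3 of them subunits, from *Prkag1* at 0.21 to *Prkaa2* at 0.53 (SE 0.12, adjusted p = 0.00380), with a median of -0.03. *Prkaa2* was scarce, at a mean of 0.57 FPKM in GFP. *Prkaa1*, the other catalytic subunit gene, stood at 23.3 FPKM there and was named after its values were seen. It did not pass (-0.10, adjusted p = 0.0940), with every CRE library below every GFP library.

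Of 19 other selective receptors and mitophagy genes tested, 6 were higher and 6 lower (31.6% each), near the shares of all tested genes (25.5% and 25.7%), with a median of -0.10. *Stbd1*, a receptor for glycogen, was measured at 46.0, 33.9 and 39.1 CPM in GFP and 66.6, 65.8 and 64.0 CPM in CRE, 1 GFP library lying below the others and all 3 below CRE (log2 fold change 0.73, SE 0.09, adjusted p = 9.40e-05). *Bnip3*, a hypoxia-induced receptor in the outer mitochondrial membrane, stood at 104, 94.1 and 111 CPM in GFP and 55.2, 51.5 and 57.9 CPM in CRE (log2 fold change -0.91, SE 0.07, adjusted p = 3.69e-06), so that CRE held 53.4% of the control mean. Of 11 other core genes tested, 4 were higher and 1 lower, with *Nrbf2*, a further subunit of the ATG14 complex, at 0.57 (SE 0.06, adjusted p = 4.47e-05) and *Sh3glb1*, a curvature-sensing partner of UVRAG, at -0.19 (SE 0.05, adjusted p = 0.00822), which was not called with library size alone (-0.03) and turned positive on FPKM values.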

How the data were processed

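RNA-seq was performed on 3 GFP and 3 CRE libraries, grouped by sample title. Reads had been trimmed (Trimmomatic), aligned to GRCm38 (HISAT2) and assigned to genes (HTSeq-count) by the authors. Tool versions and the strand setting are not given in the sources used here, and labels and methods name different library kits. The deposited table holds raw counts and, from Cufflinks, FPKM. Their group means, log2 fold changes, p-values and FDR values were not used. Counts were tested in R 4.3.3 with edgeR 4.0.16 (filterByExpr with minimum count 10 and total 15, TMM factors between 0.944 and 1.06, two-sided quasi-likelihood test). Standard errors were derived from the fold change and its F value. Overlaps and lengths are from GENCODE M21. Members, lists, motifs and tests were chosen with earlier results of these data known. Genes given per library are *Tet3*, up to 4 called members with the largest changes per step, and every ATG8 protein and receptor. Of each further list the called genes with the highest and lowest fold change were named, some of them per library. *Atg3*, *Plekhm1*, *Rubcn*, *Stk11* and others marked so were added after their values were seen. Alternatives were other size factors, filters and thresholds, DESeq2 1.42.0, limma 3.58.1 on voom or log2(FPKM + 1) values, a replicate block, and each library left out. The count test was checked on simulated data.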

Additional observations from a re-analysis of the deposited data

How the results depend on the processing

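Over 17 alternatives, 655 of 765 member results stayed on their side of the threshold in the same direction, 53 lost their call, 29 gained one and 28 changed sign. *Tet3* remained called as lower in all 17. The members called higher numbered between 20 and 32 in refits, 22 to 26 with 1 library left out, and 2 at the threshold of the study (unadjusted p under 0.05 and a fold above 1.5 or below 0.66). Those called lower numbered 2 to 4 with 1 library left out (2 without CRE replicate 2), 2 with library size alone, 1 on log2(FPKM + 1), 2 at an adjusted p under 0.01 and 0 at the threshold of the study. Of the further pathway genes, 4 were higher and 3 lower at that threshold, and 6 were lower with library size alone and 5 on log2(FPKM + 1). Over all genes 5529 were higher and 2083 lower with library size alone, 4976 and 1916 on log2(FPKM + 1), and 967 and 1323 at the threshold of the study. Replicate numbers served only as names, since deviations of libraries with the same number correlated at 0.05, 0.18 and -0.02. With the replicate block, 26 members were higher and 4 lower.

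Of the genes that changed sign, *Atg3* (-0.14) and *Sh3glb1* (-0.19) were called, and the others were not. With library size alone *Wipi1* went to 0.048, *Wdr45b* to 0.11, *Vmp1* to 0.13, *Atg3* to 0.025, *Atg10* to 0.080, *Optn* to 0.017, *Tfeb* to 0.0076 and *Mitf* to 0.15. On log2(FPKM + 1) *Wipi1* went to 0.075, *Wdr45b* to 0.095, *Vmp1* to 0.13, *Atg3* to 0.024, *Optn* to 0.0095, *Mitf* to 0.13 and *Sh3glb1* to 0.072. *Vmp1* passed the threshold in both. *Mitf* was at 0.0097 with upper-quartile scaling, and *Atg2b* at -0.00075 with RLE factors, -0.0041 with no filter and -0.00068 in DESeq2. With 1 library left out the range was -0.037 to 0.028 for *Atg2b*, -0.043 to 0.19 for *Wdr45*, -0.049 to 0.063 for *Atg7*, -0.23 to 0.059 for *Atg10*, -0.028 to 0.090 for *Map1lc3a* and -0.070 to 0.070 for *Mitf*. Fewer libraries and the shift of 0.16 in the median gene are part of these alternatives by construction, and otherwise the cause was not tested. Depth limits *Tfeb*, *Mitf*, *Atg10* and *Rragb* most.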
